A study of Mus musculus with 9 samples.

Results

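The basement membrane collagens and laminins described here were 10 genes: the type IV collagen chains Col4a1 and Col4a2, the type VI collagen chains Col6a1 and Col6a2, collagen XVIII (Col18a1), the laminin chains Lama5, Lamb1 and Lamc1, nidogen 1 (Nid1) and perlecan (Hspg2). Their probes were found by the gene symbol of the array platform. Probes were named for 9 of the 10 genes, among 16593 genes with a named probe. These were 13 probes in all out of 25697, and Lama5, the laminin α5 chain, is not analysed here. Of the 9 genes, 8 were measured above background and entered the tests, among 7354 genes tested in all. Col6a2 was at background on every array.

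The cells were mouse salivary gland cancer stem cells of strain C57BL/6, a primary isolate. They received LF3, ICG-001 or DMSO for 24 h, and each group was measured on 3 Illumina bead arrays, 9 in all. Both compounds are Wnt inhibitors per the series, known for interrupting contacts of β-catenin: LF3 the one with TCF4, and ICG-001 the one with the coactivator CBP. DMSO, the solvent, was the control. The labels give no doses, no genotype of the tumour, and no statement of whether the 3 arrays of a group came from separate cultures, so p-values measure only the spread between these arrays, which may be technical.

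A basement membrane is the thin sheet of matrix on which epithelial cells sit. Laminin trimers and type IV collagen form its separate networks, nidogen and perlecan link them, and cells hold on to it through integrins and dystroglycan. Type IV collagen is built from α chains that wind into triple helices inside the cell before secretion, and collagen XVIII is a collagen of this sheet that carries heparan sulfate. Type VI collagen forms beaded filaments that lie beside the basement membrane and anchor it to the stroma. In the salivary gland, matrix of this kind surrounds the acini and ducts and takes part in branching during development.

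Col4a1 and Col4a2 are direct neighbours on chromosome 8, with no protein-coding gene between them, and are read in opposite directions from starts that lie close together. Col6a2 and Col6a1 are neighbours on chromosome 10, again with no protein-coding gene between them, and Col18a1 follows on that chromosome with 2 protein-coding genes between it and Col6a1. The promoter windows of the Col4a1 and Col4a2 pair are shown because these 2 genes changed together in the data below. They are RefSeq sequences of build GRCm38.p6, from 250 bases before to 50 bases from the annotated start, 300 bases each, printed 5′ to 3′ on the strand of their gene. Capitals mark the 78 bases (chr8:11312777-11312854) that both windows share. The windows are those of Col4a1 (chr8:11312777-11313076, minus strand) and Col4a2 (chr8:11312555-11312854, plus strand).
Col4a1: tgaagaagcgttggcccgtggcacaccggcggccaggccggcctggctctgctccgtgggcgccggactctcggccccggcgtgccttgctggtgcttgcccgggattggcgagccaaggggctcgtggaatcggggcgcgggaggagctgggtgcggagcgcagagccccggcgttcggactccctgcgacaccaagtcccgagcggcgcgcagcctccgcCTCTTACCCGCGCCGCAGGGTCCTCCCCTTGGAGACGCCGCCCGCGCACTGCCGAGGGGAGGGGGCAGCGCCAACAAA
Col4a2: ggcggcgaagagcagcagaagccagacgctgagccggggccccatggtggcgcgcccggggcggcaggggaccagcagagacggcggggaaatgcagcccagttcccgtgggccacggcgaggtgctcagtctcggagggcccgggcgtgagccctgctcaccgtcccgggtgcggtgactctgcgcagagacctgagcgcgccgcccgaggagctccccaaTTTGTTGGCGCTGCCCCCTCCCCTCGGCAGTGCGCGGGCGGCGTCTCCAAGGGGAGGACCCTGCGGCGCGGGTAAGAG

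In the shared stretch G and C made up 73.1% of the bases, and the annotated starts lay 21 bases apart. Col4a1 starts at 11312826 on the minus strand and Col4a2 at 11312805 on the plus strand. Both genes are thus read across the bases between the starts. Every shared base lies at or downstream of at least 1 of the starts. It held 1 match to the GC box GGGCGG and 1 match to the CTC box CCCTCCCC. Letters were searched on both strands. Windows were found for 9 of the 10 genes, 11 windows in all. At least 1 GC box was found in 8 of the 9 genes and 9 of the 11 windows, against 35.7% of all 32851 promoter windows of the same length. A CTC box was found in 6 of the 9 genes, namely Lama5, Col4a1, Col4a2, Col6a1, Col6a2 and Nid1. That was 7 of the 11 windows, against 10.8% of all windows. The CTC box of Col4a1 and that of Col4a2 are the same one in the shared stretch. Both Col6a2 windows held a CTC box, and they overlap each other (chr10:76623581-76623654), so a site may be counted in both. A CCAAT box (CCAAT) was found in 5 of the 9 genes and 5 of the 11 windows, against 37.4% of all windows. The TCF/LEF core (CTTTGAT or CTTTGAA) was found in 1 of the 9 genes and 1 of the 11 windows, the upstream window of Col6a2, against 8.65% of all windows. A match describes the letters in the window and is no evidence of binding, and base composition also differs between windows: G and C made up 56.7% to 74.0% of the 11.

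Mean signal per array was 340.0 to 396.5 for LF3, 368.3 to 409.4 for ICG-001 and 398.2 to 467.3 for DMSO, and 9939 to 10897 probes per array were detected, meaning a detection p-value under 0.01. Across probes, the normalized values of arrays in the same group had r = 0.987 to 0.994, and those of arrays in different groups 0.961 to 0.984. Levels below are normalized log2 intensities, and differences are on the log2 scale. Levels of different genes are not set against each other, since each probe has its own response. Of the epithelial markers with a named probe, 6 of 11 were detected on no array, among them E-cadherin (Cdh1) and the keratins Krt18 and Krt19. The water channel Aqp5 and the secreted protein Wfdc2 were detected on all 9 arrays.

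The type IV and type VI collagen chains that could be measured were lower under ICG-001, and no member passed the test under LF3. Under ICG-001, 5 of the 8 tested genes passed at an adjusted p under 0.05 against DMSO: Col4a1, Col4a2, Col6a1 and Lamc1 were lower and Nid1 was higher. Across all 7354 genes the share that passed was 37.7%. Under LF3, 0 of the 8 passed in limma, and 0 had an unadjusted p under 0.05, while 22.4% of all genes passed. With median scaling in place of quantile normalization, which set the median of all genes at -0.24 for LF3, 4 members passed as lower under LF3: Col4a1 (-0.43), Col4a2 (-0.58), Col6a1 (-0.55) and Hspg2 (-0.50). In that setting 2140 of the 7354 genes passed as lower under LF3 and 203 as higher. The share of all genes lower under ICG-001 was 18.9%, and that higher was 18.8%. Between the inhibitors, 6 of 8 differed, against 39.7% of all genes: 4 were higher under LF3 (20.2% of all genes) and 2 lower (19.5%). In the F test among the 3 groups, 6 of 8 passed, against 52.3% of all genes. Because these are bulk samples, fewer cells of a type and less RNA per cell cannot be told apart.

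**Figure D1:**
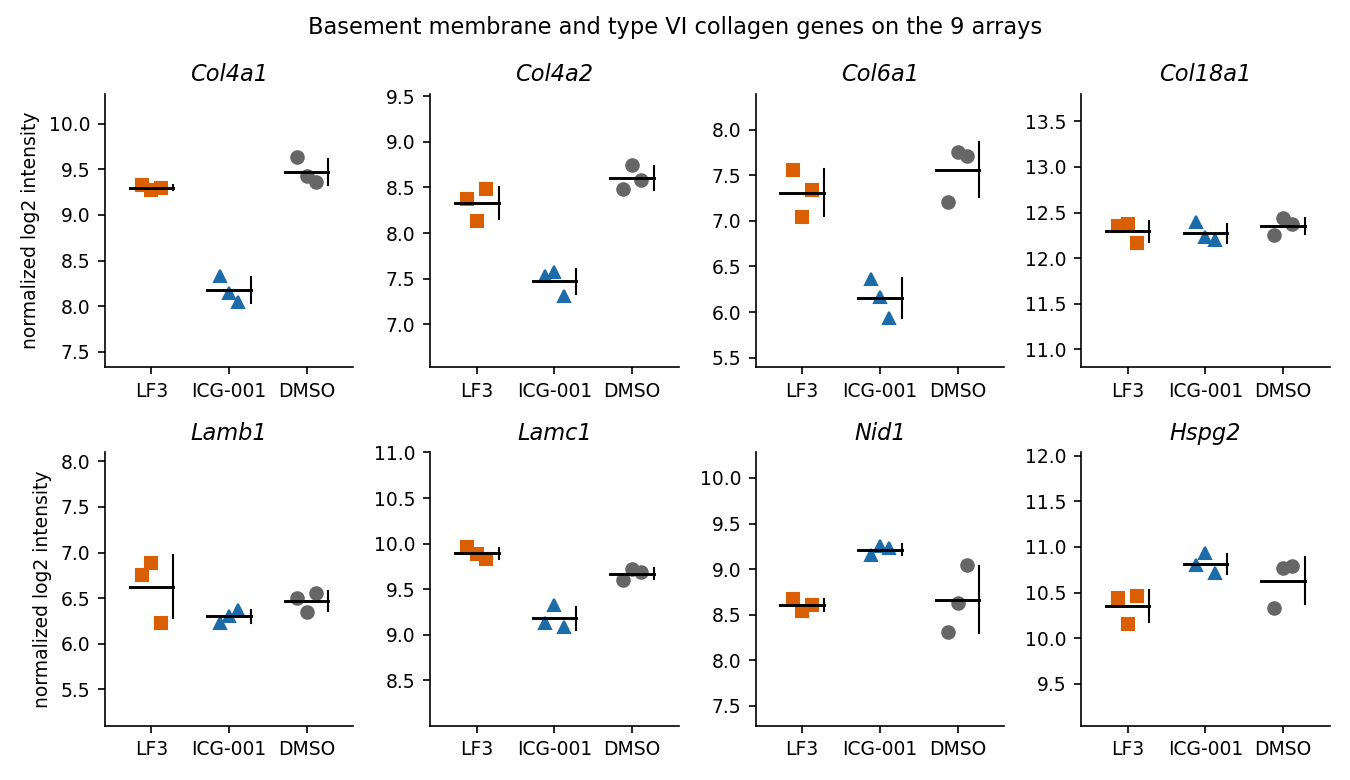
Normalized log2 intensity (vertical axis, spanning the same range in every panel) of the 8 tested genes on each array, with LF3, ICG-001 and DMSO from left to right. Each symbol is 1 array, the horizontal line is the mean of the 3 arrays and the vertical line the mean ± SD. The 3 ICG-001 arrays lie below all others for Col4a1, Col4a2, Col6a1 and Lamc1 and above all others for Nid1.

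Col4a1 encodes the α1 chain of type IV collagen, which pairs with the α2 chain in the network common to nearly all basement membranes. It stood at 9.33, 9.28 and 9.30 on the LF3 arrays, at 8.34, 8.15 and 8.05 on the ICG-001 arrays and at 9.63, 9.42 and 9.36 on the DMSO arrays. The deposited signals before normalization were 682.0, 556.2 and 522.3 for LF3, 368.9, 344.0 and 283.4 for ICG-001, and 919.0, 752.0 and 874.8 for DMSO. Every ICG-001 array was far below every other array, and the LF3 arrays lay just below the DMSO arrays with no overlap. Under ICG-001 Col4a1 was 2.46-fold lower than in DMSO (-1.30 ± 0.12 SE, limma adjusted p = 2.93e-06). The LF3 difference from DMSO was -0.17, with a 95% confidence interval from -0.43 to 0.09 (adjusted p = 0.334).

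Col4a2 encodes the α2 chain and showed the same order of groups. Its levels were 8.37, 8.14 and 8.49 with LF3, 7.53, 7.57 and 7.31 with ICG-001, and 8.49, 8.75 and 8.58 with DMSO. The ICG-001 arrays were again lowest, while 1 LF3 array reached the range of the DMSO arrays. Under ICG-001 it was 2.19-fold lower than in DMSO (-1.13 ± 0.13 SE, limma adjusted p = 1.83e-05). The LF3 difference was -0.27 (interval -0.55 to 0.01, adjusted p = 0.152), so a fall of the size seen with ICG-001 lies outside that interval. The interval holds for quantile normalization only. With median scaling the LF3 difference was -0.58 (limma adjusted p = 0.0084), just outside it, and the ICG-001 difference was -1.24. Across the 9 arrays Col4a1 and Col4a2 had a Pearson r of 0.952. The arrays fall into 2 clusters for this pair, 1 of them the ICG-001 arrays, so r mainly describes the gap between these clusters.

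**Figure D2:**
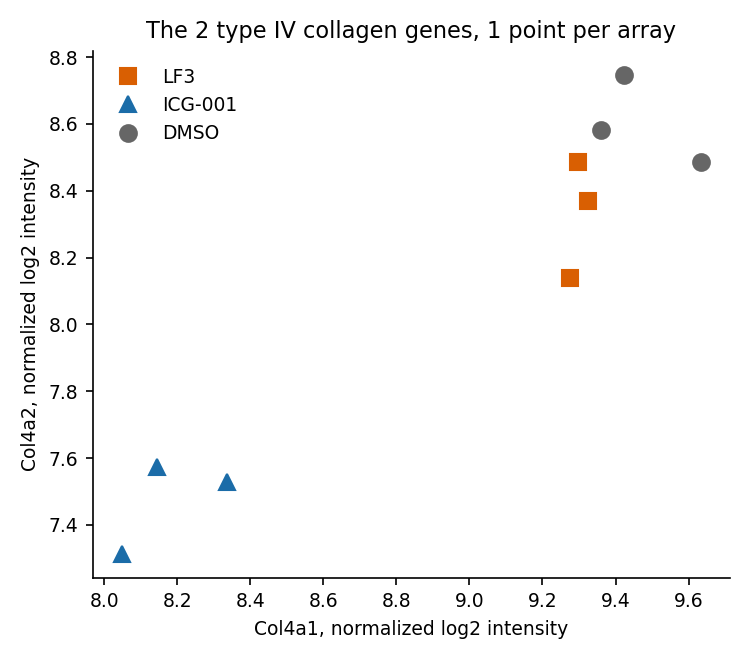
Normalized log2 intensity of Col4a1 (horizontal axis) against Col4a2 (vertical axis), with 1 point per array for LF3, ICG-001 and DMSO. The 3 ICG-001 arrays sit at 8.05 to 8.34 for Col4a1 and 7.31 to 7.57 for Col4a2, apart from the other arrays.

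Col6a1 encodes the α1 chain of type VI collagen, without which the beaded filaments do not assemble. Its brightest probe stood at 7.55, 7.04 and 7.34 with LF3, at 6.36, 6.17 and 5.93 with ICG-001, and at 7.21, 7.75 and 7.72 with DMSO. The LF3 and DMSO arrays overlapped, and all ICG-001 arrays were below both. Under ICG-001 Col6a1 was 2.65-fold lower than in DMSO (-1.40 ± 0.17 SE, limma adjusted p = 3.25e-05), and the LF3 difference was -0.25 (interval -0.62 to 0.12, adjusted p = 0.329). Leaving out 1 array moved the LF3 value between -0.42 (without DMSO array 1, adjusted p = 0.0775) and -0.12 (without LF3 array 2). A second probe gave -1.16 under ICG-001 (adjusted p = 8.33e-05) and -0.38 under LF3, which missed the threshold after adjustment (unadjusted p = 0.0336, adjusted p = 0.108). The dimmest Col6a1 probe was not detected on any array, with detection p-values from 0.317 to 0.966, so it bears on neither comparison.

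Col6a2 encodes the α2 chain of type VI collagen, the partner of the α1 chain in the filaments. Its single probe had signals of 53.5, 50.3 and 58.2 with LF3, 52.4, 48.8 and 51.5 with ICG-001, and 55.8, 58.0 and 56.3 with DMSO. The lowest detection p-value on any array was 0.159. The probe was thus not above background on any of the 9 arrays, and no change of Col6a2 could be measured.

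Col18a1 encodes collagen XVIII, whose C-terminal part is released as endostatin. Its brightest probe stood at 12.35, 12.37 and 12.17 with LF3, at 12.39, 12.23 and 12.20 with ICG-001, and at 12.25, 12.43 and 12.37 with DMSO. All 3 groups overlapped. The difference from DMSO was -0.06 for LF3 (interval -0.31 to 0.19, adjusted p = 0.765) and -0.08 for ICG-001 (interval -0.33 to 0.17, adjusted p = 0.626). The other 2 probes of the gene did not pass either, at -0.12 and -0.13 for LF3 and at -0.24 and -0.26 for ICG-001, with adjusted p from 0.145 to 0.576. One of them was detected on 8 of 9 arrays, the exception being an ICG-001 array. The difference of Col18a1 under ICG-001 was therefore bounded well short of that of Col4a1, whose interval ran from -1.56 to -1.04.

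**Figure D3:**
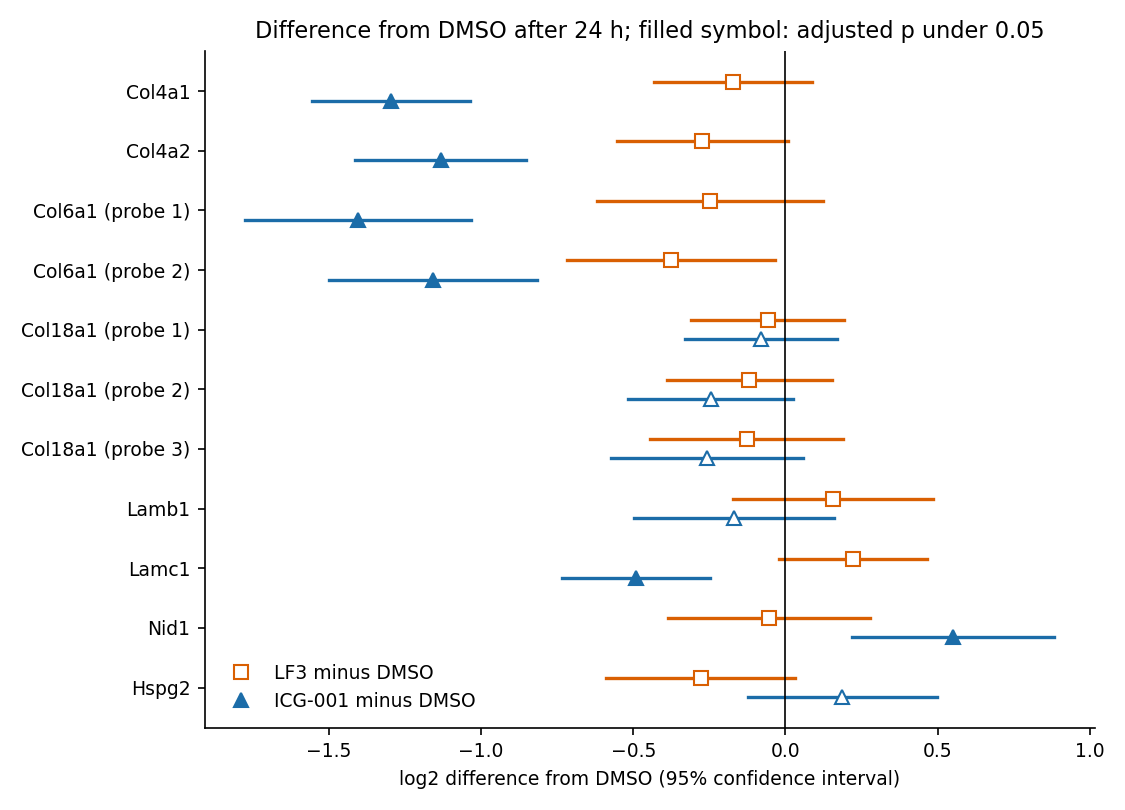
Difference from DMSO on the log2 scale (horizontal axis, symbols, with lines for the 95% confidence interval) for the 11 probes tested, LF3 as squares and ICG-001 as triangles, filled where the adjusted p was under 0.05. Probes 1, 2 and 3 of a gene run from brightest to dimmest. No LF3 symbol is filled, and the filled ICG-001 symbols are Col4a1, Col4a2, both Col6a1 probes, Lamc1 and Nid1.

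Lamc1 encodes the laminin γ1 chain, which is shared by most laminin trimers. It stood at 9.96, 9.89 and 9.83 with LF3, at 9.13, 9.33 and 9.08 with ICG-001, and at 9.60, 9.72 and 9.69 with DMSO. None of the groups overlapped: LF3 was highest, DMSO between, and ICG-001 lowest. Under ICG-001 Lamc1 was 1.41-fold lower than in DMSO (-0.49 ± 0.11 SE, limma adjusted p = 0.00402). The LF3 difference of 0.22 did not pass (interval -0.02 to 0.47, adjusted p = 0.178), and it was -0.02 with median scaling. LF3 exceeded ICG-001 by 0.71 (1.64-fold, adjusted p = 0.000299).

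Lamb1 encodes the laminin β1 chain, which joins γ1 in several trimers. It stood at 6.76, 6.89 and 6.23 with LF3, at 6.23, 6.30 and 6.37 with ICG-001, and at 6.50, 6.35 and 6.56 with DMSO. One LF3 array was as low as the lowest ICG-001 array while the other LF3 arrays were the highest of all 9, and all groups overlapped. Differences from DMSO were 0.16 for LF3 (interval -0.17 to 0.49, adjusted p = 0.502) and -0.17 for ICG-001 (interval -0.50 to 0.16, adjusted p = 0.415). The LF3 value was 0.025 without LF3 array 2 and 0.36 without LF3 array 3 (adjusted p = 0.0588). LF3 minus ICG-001 was 0.33 (adjusted p = 0.107), and 0.53 without the third LF3 array (adjusted p = 0.00537).

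Nid1 encodes nidogen 1, which binds the laminin γ1 chain and type IV collagen and so bridges the networks. It stood at 8.68, 8.54 and 8.61 with LF3, at 9.15, 9.26 and 9.23 with ICG-001, and at 8.32, 8.63 and 9.05 with DMSO. The ICG-001 arrays were the 3 highest after normalization. In the deposited signals DMSO array 3, at 707.4, was above the ICG-001 arrays at 620.5, 697.5 and 592.4. The DMSO arrays had the widest spread of the 3 groups (SD 0.37, against 0.07 for LF3 and 0.06 for ICG-001). Under ICG-001 Nid1 was 1.46-fold higher than in DMSO (0.55 ± 0.16 SE, limma adjusted p = 0.0129), a call that ended with median scaling (0.44, adjusted p = 0.0582). The LF3 difference was -0.05 (interval -0.39 to 0.28, adjusted p = 0.836), and it turned to 0.14 without the third DMSO array.

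Hspg2 encodes perlecan, the large heparan sulfate proteoglycan of basement membranes. It stood at 10.44, 10.15 and 10.46 with LF3, at 10.80, 10.93 and 10.71 with ICG-001, and at 10.33, 10.76 and 10.79 with DMSO. The LF3 and ICG-001 arrays did not overlap, and the DMSO arrays overlapped both. Against DMSO, Hspg2 was at -0.28 under LF3 (interval -0.59 to 0.03, adjusted p = 0.186) and at 0.19 under ICG-001 (interval -0.12 to 0.50, adjusted p = 0.335), which was 0.037 without DMSO array 1. LF3 was 1.38-fold below ICG-001 (-0.46 ± 0.14 SE, limma adjusted p = 0.0205), a call lost without the second ICG-001 array (-0.41, adjusted p = 0.0802), without the second LF3 array (-0.36, adjusted p = 0.0892) and with no filter on dim probes (adjusted p = 0.0514). Against DMSO, LF3 passed for Hspg2 with array weights (-0.37, adjusted p = 0.0427) and when DMSO array 1 was left out (-0.43, adjusted p = 0.0335).

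Set directly against each other, the inhibitors left different levels of 6 of the 8 genes, as far as their unstated doses allow a comparison. LF3 was above ICG-001 for Col4a1 (1.12, adjusted p = 1.45e-05), Col4a2 (0.86, adjusted p = 0.00021), Col6a1 (1.16, adjusted p = 0.000185) and Lamc1, and below it for Nid1 (-0.60, adjusted p = 0.00721) and Hspg2. For Col18a1 the difference was 0.02 (interval -0.23 to 0.27). The arrays of the 2 inhibitors did not overlap for these same 6 genes, and 51.6% of all genes showed no overlap between the inhibitors. Against DMSO, ICG-001 arrays did not overlap DMSO arrays for 5 of 8 genes (50.7% of all genes), and LF3 arrays for 2 of 8, Col4a1 and Lamc1 (36.8% of all genes). The 2 comparisons with DMSO share the DMSO arrays.

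The median difference over the 8 genes was -0.12 under LF3 and -0.33 under ICG-001, against 0.0072 and -0.0049 over all genes. Under ICG-001 the 8 values ran from -1.40 to 0.55, with both signs among the genes that passed. Correlations among them over the 9 arrays, given as description, reached 0.975 for Col4a2 with Col6a1 and 0.928 for Col4a1 with Col6a1, and -0.873 for Col4a1 with Nid1. Nid1 and Hspg2 correlated at 0.808. Of all 7353 other tested genes, those most like Col4a1 were 2310022B05Rik (r = 0.991), Acaa2, a thiolase of mitochondrial fatty acid oxidation (0.990), and Idh3a, a subunit of mitochondrial isocitrate dehydrogenase (0.988), with Col4a2 at rank 78. Those most like Col6a1 were Camk2b, a subunit of calmodulin kinase II (0.989), the histone H4 gene H4c9, one of a family of near-identical copies (0.986), and Mdh1, cytosolic malate dehydrogenase (0.986), with Col4a2 at rank 13. Camk2b was detected on 2 of 3 LF3, 0 of 3 ICG-001 and 3 of 3 DMSO arrays, so its r rests in part on values at background. Those most like Lamb1 were the zinc transporter Slc39a10 (0.934), the sterol sensor Insig2 (0.929) and the mitochondrial ribosomal protein gene Mrpl28 (0.928). Slc39a10 was likewise detected on 2 of 3 LF3, 0 of 3 ICG-001 and 3 of 3 DMSO arrays. The 2 detected probes of Insig2 differed in sign for LF3 minus DMSO, at 0.20 on the brightest and -0.20 on the other.

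Other chains and components of the matrix were mostly not measurable. Of 28 further genes of this kind with a named probe, 17 were detected on no array, among them Col4a3, Col4a4, Col4a6, Lama1, Lama2, Lama4, Lamb3, Nid2 and Col15a1, and 9 were tested. Under ICG-001, 5 of the 9 fell and 1 rose, with a median of -0.49, beside 18.9% of all genes that fell and 18.8% that rose. Under LF3, where 22.4% of all genes passed, 0 of the 9 passed in limma, 2 had an unadjusted p under 0.05, and the median was -0.11. With median scaling 3 of the 9 were lower under LF3, as were 2140 of all 7354 genes. Col4a5, which encodes the α5 chain of type IV collagen, had the largest fall of the 9.

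Col4a5 stood at 7.55, 7.37 and 7.32 with LF3, at 6.17, 6.26 and 6.22 with ICG-001, and at 7.61, 7.74 and 7.84 with DMSO. The ICG-001 arrays were more than 1 unit below all others. Its difference under ICG-001 was -1.51 ± 0.12 SE (limma adjusted p = 6.06e-07), and -0.32 under LF3 (adjusted p = 0.0674). Sparc, a collagen-binding matrix glycoprotein, fell by 0.59 under ICG-001 (adjusted p = 0.000893) and by 0.79 on a second probe. Lamb2, the laminin β2 chain, fell by 0.49 (adjusted p = 0.00506), and Fbln2, fibulin 2, fell by 0.70 (adjusted p = 0.00561). The fifth gene that fell was Tinagl1 (-0.53, adjusted p = 0.00675), and the one that rose was Agrn, the heparan sulfate proteoglycan agrin (0.39, adjusted p = 0.0269). Tinagl1 and Agrn were named after their values were seen. The call of Agrn ended with median scaling and without any 1 of 5 arrays (adjusted p from 0.0536 to 0.148).

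**Figure D4:**
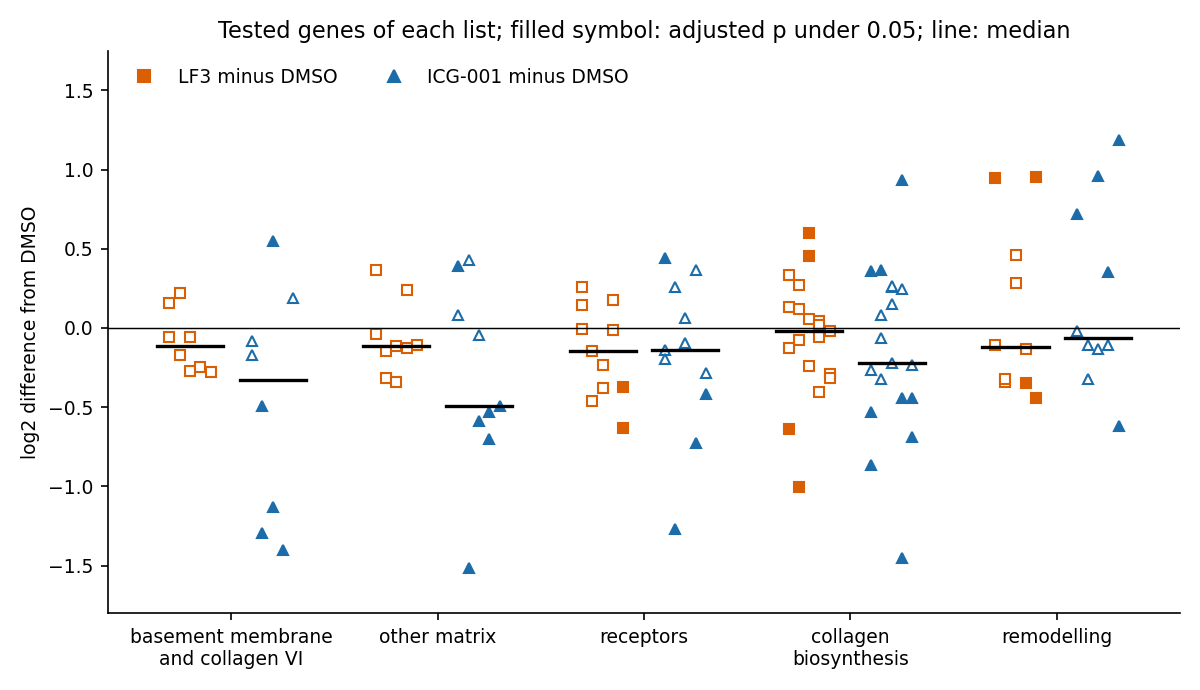
Difference from DMSO on the log2 scale (vertical axis) for each tested gene of the 8 members and of 4 further lists, LF3 as squares on the left and ICG-001 as triangles on the right of each list, filled where the adjusted p was under 0.05. Lines are medians, and Col4a5 is the lowest ICG-001 triangle among the other matrix genes at -1.51.

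Among receptors for these proteins, 11 of 18 genes with a named probe were tested. Under ICG-001, 3 fell and 1 rose (median -0.14), and under LF3, 2 fell and 0 rose (median -0.14), against 6 that fell with median scaling. Over all genes 37.7% passed under ICG-001 and 22.4% under LF3, and with median scaling 2140 of 7354 genes fell under LF3. Dag1 encodes dystroglycan, which binds laminin and perlecan. It stood at 9.14, 8.94 and 8.04 with LF3, at 7.99, 7.64 and 8.06 with ICG-001, and at 9.52, 9.13 and 8.85 with DMSO. The third LF3 array fell within the ICG-001 range. Dag1 was lower under ICG-001 (-1.27 ± 0.24 SE, limma adjusted p = 0.00104; second probe -1.41). Under LF3 its brightest probe was at -0.46 (adjusted p = 0.188) and its second at -0.78 (adjusted p = 0.0271). Sdc1, the proteoglycan syndecan 1, fell by 0.72 under ICG-001, where 1 of 3 arrays detected it (adjusted p = 0.000398).

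Sdc2, syndecan 2, fell under both compounds, by 0.37 with LF3 (adjusted p = 0.0311) and by 0.42 with ICG-001 (adjusted p = 0.0104). The LF3 call of Sdc2 ended with the replicate number as a block (adjusted p = 0.0524), in a fit of the LF3 and DMSO arrays alone (adjusted p = 0.0573) and without any 1 of 5 arrays, namely DMSO array 2 or 3 or any LF3 array. Without DMSO array 2 or 3 or LF3 array 2 or 3, 1 receptor was called. Itga3, the α3 subunit of a laminin-binding integrin, fell by 0.63 under LF3 (adjusted p = 0.00293) and was at -0.29 under ICG-001 (adjusted p = 0.0827). The receptor that rose under ICG-001 was Itga6, the α6 subunit (0.44, adjusted p = 0.0456), detected on 1 of 3 LF3, 3 of 3 ICG-001 and 1 of 3 DMSO arrays, and named after its values were seen. That call of Itga6 ended under 14 of the 21 alternatives tried, and it was not tested where detection on all 9 arrays was required.

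Of the genes for collagen hydroxylation, folding, secretion and cross-linking, 19 were tested, of 27 with a named probe. Under LF3, 2 rose and 2 fell (median -0.02), and under ICG-001, 3 rose and 6 fell (median -0.22), where 22.4% and 37.7% of all genes passed. With median scaling 0 rose and 6 fell under LF3, and 1 rose and 6 fell under ICG-001. Of all 7354 genes, 203 rose and 2140 fell under LF3 in that setting, and 832 rose and 1554 fell under ICG-001. Pcolce encodes an enhancer of the protease that trims procollagen. It stood at 9.60, 9.30 and 9.59 with LF3, at 8.65, 8.50 and 8.20 with ICG-001, and at 9.86, 10.19 and 9.66 with DMSO, with the ICG-001 arrays apart from the rest. Pcolce fell by 1.45 under ICG-001 (adjusted p = 1.08e-05), and Bmp1, the protease that it enhances, fell by 0.53 (adjusted p = 0.00217; other probes -0.52 and -0.62).

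Ctage5, involved in collagen export from the endoplasmic reticulum, rose by 0.94 under ICG-001 (adjusted p = 2.49e-05; second probe 0.88). Its current name is Mia2, which the platform uses for a separate probe that was not detected. Sec23a, a coat protein of export vesicles, rose by 0.60 under LF3 (adjusted p = 0.00401), but was at 0.31 with median scaling (adjusted p = 0.156). In ICG-001 cells Sec23a was at 0.27 (adjusted p = 0.104).

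Of 23 genes of matrix proteases and their inhibitors with a named probe, 10 were tested and 12 were detected on no array, among them Mmp2, Mmp3, Mmp7, Mmp10 and Mmp13. Under LF3, 2 rose and 2 fell (median -0.12), and under ICG-001, 4 rose and 1 fell (median -0.06), where again 22.4% and 37.7% of all genes passed. With median scaling 2 rose and 4 fell under LF3, and 3 rose and 1 fell under ICG-001. In that setting 203 of all 7354 genes rose and 2140 fell under LF3, and 832 rose and 1554 fell under ICG-001. Htra1, a secreted serine protease, stood at 11.97, 12.37 and 11.97 with LF3, at 12.12, 12.42 and 12.48 with ICG-001, and at 11.62, 10.89 and 10.94 with DMSO. All DMSO arrays were below all others. Htra1 rose by 0.95 under LF3 (adjusted p = 0.00315) and by 1.19 under ICG-001 (adjusted p = 0.000248). Adamts1, a protease that cuts proteoglycans, rose by 0.95 under LF3 (adjusted p = 0.000936) and by 0.72 under ICG-001 (adjusted p = 0.00226), and was detected on 1 of 3 DMSO arrays. Plaur, the urokinase receptor, rose by 0.96 under ICG-001 (adjusted p = 0.00038) and was at 0.46 under LF3 (adjusted p = 0.052). Timp2, an inhibitor of matrix metalloproteinases, fell by 0.44 under LF3 (adjusted p = 0.0172) and by 0.62 under ICG-001 (adjusted p = 0.00111). The LF3 call of Timp2 ended without the second DMSO array, the third DMSO array or the third LF3 array (adjusted p from 0.0537 to 0.065). The other gene that fell under LF3 was Timp1 (-0.35, adjusted p = 0.0498), named after its values were seen. It was also among the 4 that rose under ICG-001 (0.35, adjusted p = 0.03). The LF3 call of Timp1 ended under 12 of the 21 alternatives tried, and its ICG-001 call under 7.

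Several cell types of the stroma also make these genes, so their markers are given beside the falls under ICG-001. Of 11 endothelial markers with a named probe, 8 were detected on no array, including Pecam1, Cdh5 and Kdr. The summed signal of the 11 was 670.8 to 721.8 on LF3 arrays, 672.2 to 723.9 on ICG-001 arrays and 908.1 to 1076.3 on DMSO arrays. All 3 tested endothelial markers, Tie1, Eng and Plvap, fell under ICG-001, where 18.9% of all genes fell. Tie1 and Plvap also fell under LF3, where 11.4% of all genes fell. Tie1 was detected on 0 of 3 LF3, 0 of 3 ICG-001 and 3 of 3 DMSO arrays. It thus entered the tests only through DMSO, the group where it was highest. The filter favoured its falls, so the shares over all genes are no fair measure for Tie1. Of 12 fibroblast markers, 9 were detected on no array, including Col1a2, Col3a1, Dcn and Lum, and the sums were 1484 to 2116 for LF3, 1392 to 1686 for ICG-001 and 1804 to 1946 for DMSO. Col1a1, the α1 chain of type I collagen, was detected on 2 of 3 LF3 arrays, 0 of 3 ICG-001 arrays and 3 of 3 DMSO arrays. It was at least 1.47-fold lower under ICG-001 (adjusted p = 0.000307). Col1a1 was 1 of 3 fibroblast markers tested, and the other 2 did not pass under ICG-001. The median of the 3 was -0.19 under ICG-001 and -0.18 under LF3, where 0 passed.

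Smooth muscle and myoepithelial markers summed to 723.4 to 754.3 with LF3, 723.4 to 759.4 with ICG-001 and 791.2 to 909.2 with DMSO, with Acta2, Myh11, Krt5 and Krt14 among the 8 of 11 detected on no array. The 11 epithelial markers summed to 6024 to 7877 with LF3, 5304 to 6348 with ICG-001 and 9776 to 13023 with DMSO. Of the 5 tested, 1 rose and 1 fell under LF3 and 2 fell under ICG-001. Over all genes 11% rose and 11.4% fell under LF3, and 18.9% fell under ICG-001. The 8 macrophage and leukocyte markers summed to 573.9 to 605.2 with LF3, 710.3 to 772.0 with ICG-001 and 622.1 to 741.7 with DMSO, with Ptprc detected on no array. All these marker sums are of signals before normalization and without background subtraction. They include the background readings of markers detected on no array, so they are not levels of the markers alone. Mean signal per array was also lower on the LF3 arrays (340.0 to 396.5) than on the DMSO arrays (398.2 to 467.3). On the ICG-001 arrays it was 368.3 to 409.4, which overlapped the DMSO range at its upper end. The part of other cell types in the falls of the collagen chains was not tested.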

How the data were processed

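Per the labels' protocols, Trizol extracts of total RNA were purified by RNeasy kit and turned into biotinylated cRNA for Illumina arrays, and the submitters' processing notes name GenomeStudio 2010.1. Deposited per-probe intensities were linear and had no between-array normalization, and a detection p-value accompanied each of them, per the file headers. A detection column was assigned to the array whose signal column stands directly before it. A second set of intensities, processed by the authors, served as an alternative only. By their values these are linear, not centred, background-subtracted and quantile-normalized, with array medians of 9.3 to 9.4. How the authors made them is not given in the sources used here, and on the log2 scale they correlated with the values used here at r above 0.9999.

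Intensities were background-corrected, log2-transformed and quantile-normalized (neqc, limma 3.58.1, R 4.3.3, offset 16, which shrinks differences of dim genes). Probes with detection p under 0.01 on at least 3 of 9 arrays were kept (10830 of 25697, 42.1%). A gene was represented by its brightest probe. A single gene symbol was given for 23978 probes, several for 0 and none for 1719. All 9 arrays entered 1 limma fit (lmFit, eBayes). P-values are two-sided and Benjamini-Hochberg adjusted over the 10830 probes, with 0.05 as the threshold. Levels are means over 3 arrays, errors are SE of the fit or SD, and precision is limited by how many arrays there were (median SE 0.135). The fit was tested on simulated data. A gene detected on no array of a group has only a bound, from the lowest signal among detected probes.

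The members, the lists and the tests were chosen with earlier results of these data known. Named genes were all members, the 4 genes of each further list with the lowest adjusted p against DMSO if they passed, and the 3 genes most correlated with Col4a1, Lamb1 and Col6a1. Replicate numbers gave no clear sign of pairing: the correlation of deviations of same-numbered arrays was above 0.1 in 2 of 9 pairs. With 3 arrays per group this check is weak. Promoter windows were taken from RefSeq (GRCm38.p6), matched by symbol.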

Additional observations from a re-analysis of the deposited data

How the results depend on the processing

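The number of members called under ICG-001 stayed at 5, except for 4 with median scaling, in which Nid1 was lost (0.44). For LF3 against ICG-001 it ranged from 5 to 7. For LF3 against DMSO it was 4 with median scaling, all lower (Col4a1, Col4a2, Col6a1 and Hspg2), 2 with array weights (Col4a2 and Hspg2), 0 to 1 on leaving out each array, and 0 otherwise. Median scaling put the median of all genes at -0.24 for LF3 minus DMSO, with 203 genes higher and 2140 lower, against 810 and 835 with quantile normalization. Relative to that shift these 4 members stood at -0.19, -0.34, -0.31 and -0.26. The shift was -0.14 for LF3 minus ICG-001, with 733 genes higher and 1943 lower, against 1489 and 1434, and -0.10 for ICG-001 minus DMSO, with 832 higher and 1554 lower, against 1380 and 1393. In that setting Lamb1 (-0.11) and Lamc1 (-0.020) changed sign for LF3 minus DMSO, as did Col18a1 for LF3 minus ICG-001 (-0.076). The cause was not tested. On leaving out 1 array, Nid1 (-0.23 to 0.14) and Col18a1 (-0.11 to 0.0079) changed sign for LF3 minus DMSO, and Col18a1 (-0.017 to 0.087) for LF3 minus ICG-001. None of these values passed.

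Among all genes, calls for LF3 minus DMSO numbered 466 higher and 405 lower without the second DMSO array, 475 and 447 without the third, and 520 and 501 without the second LF3 array. For the further lists, calls against DMSO under LF3 ranged from 0 to 3 for other matrix genes and 1 to 6 for receptors, the highest with median scaling. The proteases and inhibitors had 2 calls without DMSO array 2 or 3 and 7 with array weights, against 4. The collagen biosynthesis genes had 2 without DMSO array 3, against 4, and under ICG-001 5 without it, against 9. With the replicate number as a block the members called were 0, 5 and 6 for LF3 minus DMSO, ICG-001 minus DMSO and LF3 minus ICG-001, as without it. The numbers gave no clear sign of pairing (r from -0.23 to 0.14), and 4 of 9 arrays correlated best with their own number. The highest correlation of deviations between groups was 0.34, for DMSO array 1 with LF3 array 2. A batch that crosses the numbers was not tested. The headers name no chip, so chip as a block was not run. Probes near background, Col6a2 and the dimmest Col6a1 probe among them, limit what can be measured.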
